A study of Mus musculus with 2 samples.

Results

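Axon guidance ligands and receptors were examined in RNA sequencing of the mouse cerebellum at postnatal day 3, as all rows of the count table whose symbols belong to the semaphorin, plexin, neuropilin, Slit, Robo, netrin, Unc5, Dcc, Eph and ephrin families. Of 22423 genes, 69 matched by name, namely 68 family genes and 1 antisense RNA, Plxna4os1, whose symbol begins like that of a plexin. The control was a Prdm16fl/fl mouse cerebellum, with floxed alleles of the zinc finger regulator Prdm16, and the other group was labelled Prdm16cKO, a conditional knockout (cKO), both on the C57BL/6 strain. Neither the Cre driver nor the exons it removes are given in the labels. The design text speaks of triplicates, while the table holds 1 column of counts per genotype, treated here as 1 library each. Whether each column stands for 1 animal or for several is left unstated there. No difference between the genotypes therefore has a replicate check.

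Growing axons and migrating neurons steer by these proteins. Semaphorins signal through plexins, and most secreted class 3 semaphorins bind a neuropilin that partners an A-type plexin. Slits repel through Robo receptors, netrins attract through Dcc and repel through Unc5 receptors, and ephrins on 1 cell bind Eph receptor kinases on the next, signalling in both directions. In the mouse cerebellum, Plxnb2, Sema6a with Plxna2, and Unc5c are known from mutants to shape the proliferation, migration or boundaries of granule cells.

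The control library held 18600299 reads over genes and the cKO library 17501279. Reads of Prdm16 itself numbered 315 in the control and 118 in the cKO. Its log2 ratio of cKO over control was -1.30 (95% counting interval -1.62 to -0.99). The libraries also differed in tissue and sex markers. Of 14 choroid plexus markers, 12 were at least 2-fold lower in the cKO, and their summed level was 6097 CPM, or reads scaled to the library total, in the control against 192 in the cKO, with none at 0 reads. Markers of brainstem and midbrain neurons summed to 388 and 183 reads, or 20.6 and 10.6 CPM, of which Gata2 held 107 and 118 reads. Their median log2 ratio was -2.01 over the 10 compared, with 7 below and 3 above 0. Of these 10 markers, 6 were at least 2-fold lower, with Hoxa3 at 0 cKO reads. Those of cerebellar nuclei and unipolar brush cells had a median log2 ratio of -0.48 and 2 of 11 at least 2-fold lower. Meningeal fibroblast markers had a median of 0.23, with 13 of 13 above 0 and none past 2-fold. Medians were 0.24 for Purkinje cells, 0.15 for granule neuron progenitors, 0.10 for postmitotic granule neurons and -0.05 for endothelial and mural cells. Astrocytes with Bergmann glia stood at -0.01, the oligodendrocyte lineage at -0.04 and housekeeping genes at 0.11. Xist had 14779 control and 21 cKO reads, and all 4 Y-linked genes examined were higher in the cKO, so genotype and this female or male pattern cannot be told apart. The part of these differences in any value given here was not tested. In whole tissue, fewer cells of a type and less RNA per cell cannot be told apart.

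Guidance genes as a whole were well measured and close between the libraries. They took 88403 control reads and 80323 cKO reads, or 0.475% and 0.459% of all gene reads. Per length of annotated exon, the median member stood at 6.16 CPM per kilobase (kb) in the control and 5.83 in the cKO, and 23 members exceeded 10 CPM per kb in each library. The same 3 genes ranked highest in both. Plxnb2, a plexin of proliferating granule cell progenitors in mice, led at 67.9 CPM per kb in the control and 75.3 in the cKO. Sema7a, a membrane-anchored semaphorin that signals through Plxnc1 and integrins, followed at 55.5 and 65.9 CPM per kb. Efnb3, a transmembrane ephrin of the neural midline, came next at 38.6 and 35.9 CPM per kb. Sema6a, Sema6c, Epha8, Sema4g, Ephb2 and Sema4c filled the next 6 places in both libraries, between 19.0 and 27.5 CPM per kb in the control and between 19.2 and 29.5 in the cKO. Among these, Epha8 ranked below Sema6a and Sema6c in the control and above both in the cKO. At the low end, Epha1, Sema3e, Epha6, Epha2, Ntn5 and Plxna4os1 were below 1 CPM per kb in the control. Exon lengths came from a newer mouse build than the one used for counting, so these levels are approximate between genes.

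**Figure D1:**
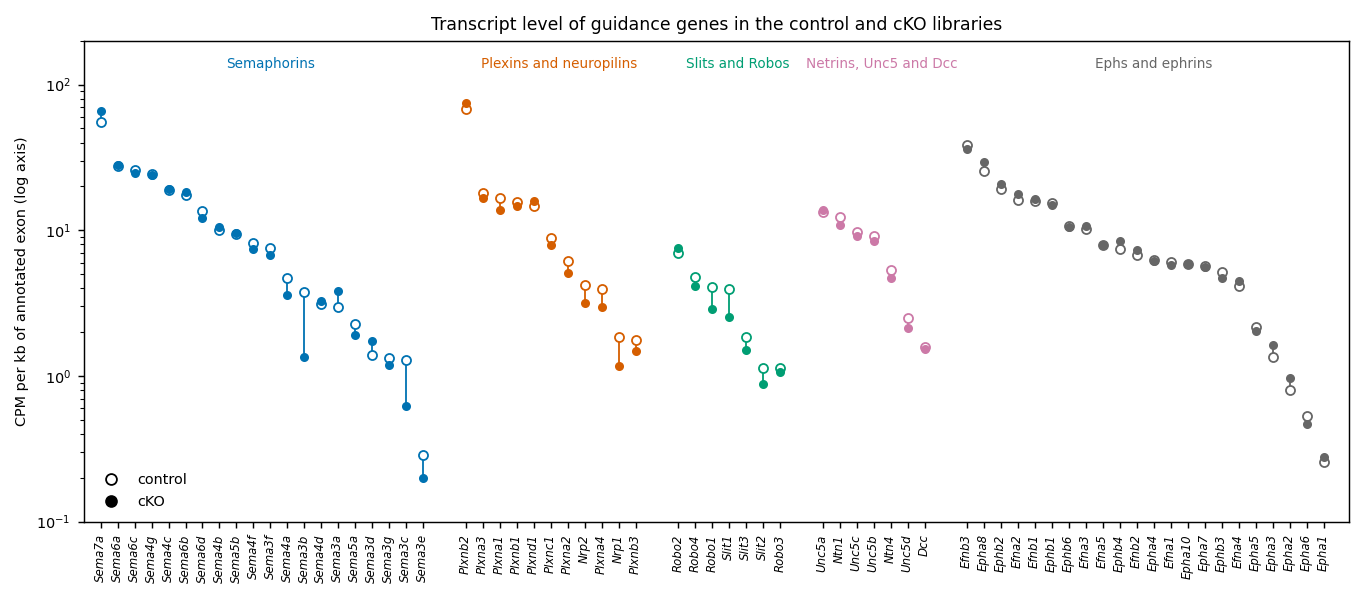
Level of each guidance gene with reads in both libraries, in CPM per kb of annotated exon on a log axis, with open circles for the control and filled circles for the cKO. Plxnb2 and Sema7a lie highest, and the widest gaps between open and filled circles are at Sema3b and Sema3c.

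A minimum of 10 reads, summed over the libraries, left 67 of the 69 members to compare. A gene passed the 2-fold rule when the difference, after scaling, was 2-fold or more and its exact 95% counting interval excluded a ratio of 1. By this rule 2 of 67 members were lower in the cKO, Sema3b and Sema3c, and 0 were higher. None of the other 65 compared members reached 2-fold, and where a counting interval includes 0 the sign of the ratio is uncertain. Of all 18787 genes compared, 2.20% were lower and 1.21% higher, so the share among members (2.99% lower) was near the background. At 1.5-fold, Nrp1 and Slit1 joined them, making 4 below and 0 above. This was 5.97% of members, against a background of 3.92% lower and 2.26% higher. At a depth of 500 reads or more, 2 of 53 members (3.77%) were lower at 1.5-fold, against a background of 1.06%. At 2-fold, 0 of these 53 were lower, against 0.394%. No p-value is given for these counts, since 1 library per genotype allows no test.

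Smaller shifts leaned one way in some families. The counting interval lay below a log2 ratio of 0 for 21 of 67 members (31.3%) and above it for 10 (14.9%), and it included 0 for 36. Over all genes compared the shares were 15.5% below and 17.0% above. Such intervals narrow with depth, and 53 of the 67 members had at least 500 reads. Of these 53, the interval lay below 0 for 19 (35.8%) and above 0 for 8 (15.1%), against 20.0% and 25.4% of the 10160 genes with that depth. The split moved with scaling. With counts scaled to library totals, 28 members lay below and 6 above, against 19.0% and 13.7% of all genes compared. The median log2 ratio was -0.07 over the members and 0.01 over all genes compared.

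**Figure D2:**
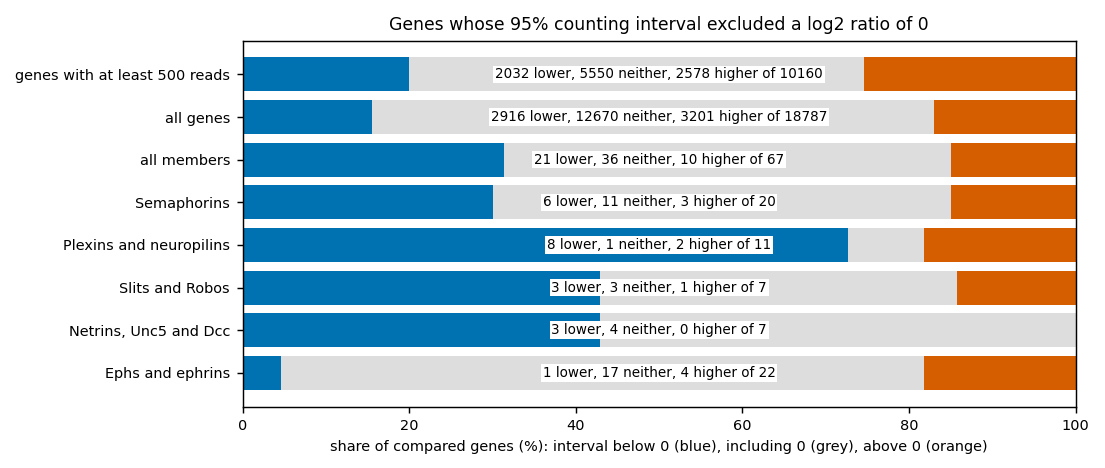
Share of compared genes whose 95% counting interval for the cKO over control ratio lay below 0 (blue), included 0 (grey) or lay above 0 (orange), by family and for all genes. Plexins and neuropilins have 8 of 11 below 0, while Ephs and ephrins have 1 of 22.

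The share of members with a ratio below 0 is read against 48.7% of all genes compared. Plexins with neuropilins had a median log2 ratio of -0.27, with 9 of 11 below 0. Slits with Robos stood at -0.29, with 6 of 7 below 0, and netrins with their receptors at -0.11, with 6 of 7 below 0. Semaphorins had a median of -0.05, with 11 below and 9 above 0. Ephs and ephrins had a median of 0.02, with 10 below and 12 above 0, and this median changed sign to -0.01 when counts were scaled to library totals. No test of the difference between families was made, and members of a family are not replicates of the genotype. Receptors as a class had a median of -0.08 over 34 genes and ligands one of -0.05 over 33.

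**Figure D3:**
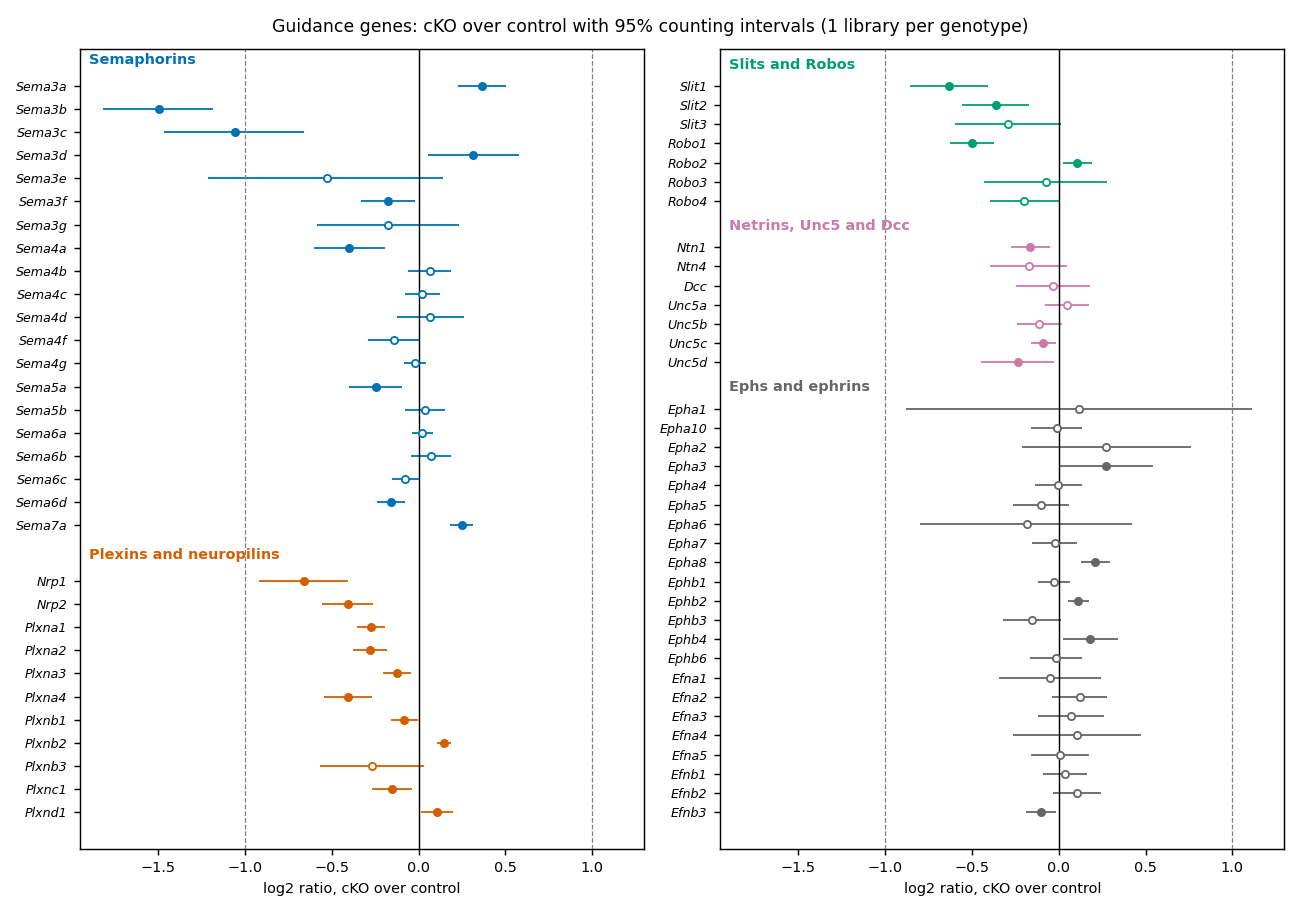
Log2 ratio of the cKO over the control for the 67 compared guidance genes, by family, with exact 95% counting intervals. Filled points have intervals that exclude 0, and dashed lines mark 2-fold. Sema3b and Sema3c lie beyond the lower line, and all Nrp and Plxna genes lie left of 0.

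Class 3 semaphorins, the secreted ligands of the neuropilins, held both genes past 2-fold. Sema3b (ENSMUSG00000057969), which acts on neuropilin-expressing axons, was counted 340 times in the control library and 111 times in the cKO library. Scaled levels were 18.1 CPM (16.2 to 20.1) and 6.41 CPM (5.27 to 7.72). The cKO was thus 2.82-fold lower (2.27-fold to 3.53-fold), at a log2 ratio of -1.50 (-1.82 to -1.18). Of 13661 genes with at least 100 reads, 0.512% had a lower ratio than Sema3b. Sema3c (ENSMUSG00000028780), a guidance cue of cortical axons and of the developing heart in mice, had 174 control and 77 cKO reads. Its levels were 9.26 CPM (7.93 to 10.7) and 4.45 CPM (3.51 to 5.56). The cKO level was 2.08-fold lower (1.58-fold to 2.76-fold), or -1.06 (-1.46 to -0.66) as a log2 ratio, and 0.820% of genes of that depth lay lower. In both genes the cKO library lay below the control without overlap of the counting intervals. The summed choroid plexus level stood at 6097 and 192 CPM and the summed meningeal level at 2715 and 3241 CPM between the same libraries, and their part in these values was not tested.

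Other class 3 ligands stood in both directions. Sema3a, a repellent that acts through Nrp1, had 774 control and 918 cKO reads, a log2 ratio of 0.36 (0.22 to 0.50). Its ratio was the highest of all members, and 4.41% of genes with at least 100 reads had a higher one. Sema3d had 226 and 259 reads, a ratio of 0.31 (0.05 to 0.58). Sema3f, the main ligand of Nrp2, had 744 and 607 reads (-0.18, -0.33 to -0.02). The intervals of Sema3e (50 and 32 reads), which binds Plxnd1 directly, and of the endothelial ligand Sema3g (114 and 93 reads) included 0. Summed over its 7 genes, class 3 stood at 129 against 121 CPM.

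The neuropilins and A-type plexins form a receptor complex for most class 3 semaphorins, and all 6 of these genes had intervals below 0. Plxnd1, which Sema3e binds directly, is not among the 6 and stood at 0.11 (0.02 to 0.20). Each of the 6 had at least 500 reads, and 20.0% of genes of that depth had intervals below 0. These 6 stayed below 0 under each of the 4 scalings tried, all of the same 2 libraries. However, 0 of 6 passed the 2-fold rule and 1 passed 1.5-fold. At a depth of 500 reads or more, the background shares on the lower side were 0.394% and 1.06%. Without regard to depth, they were 2.20% and 3.92% of all genes compared. Nrp1, which also serves as a co-receptor for vascular endothelial growth factor, had 340 control and 198 cKO reads, or 18.1 against 11.4 CPM. The 1.58-fold difference is a log2 ratio of -0.66 (-0.92 to -0.41), with 2.09% of genes of at least 100 reads below it. Nrp2, the neuropilin preferred by Sema3f, had 936 and 650 reads, or 49.8 against 37.5 CPM, a ratio of -0.41 (-0.56 to -0.26). These were the 2 lowest ratios among plexins and neuropilins.

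The A-type plexins, the signalling subunits of that complex, followed with smaller differences. Plxna4 stood at -0.40 (-0.54 to -0.27) with 1047 and 729 reads. Plxna2, also a Sema6a receptor in granule cells, stood at -0.28 (-0.38 to -0.18) with 1990 and 1508 reads, and Plxna1 at -0.27 (-0.35 to -0.19) with 2851 and 2175. The X-linked Plxna3 was closest to 0 at -0.12 (-0.20 to -0.04), with 2677 and 2266 reads. Summed, neuropilins and A-type plexins took 524 control and 435 cKO CPM, a log2 ratio of -0.27 (-0.31 to -0.23). This grouping was not among the families set in advance. Annotated antisense genes overlap exons of Plxna1 and Plxna4 and a microRNA overlaps Nrp1, and the library kit named in the labels does not mark strand, so reads of such pairs cannot be told apart. In the same libraries the endothelial and mural list summed to 793 and 752 CPM, and the brainstem list to 20.6 and 10.6 CPM. The median log2 ratios of these lists were -0.05 and -2.01. Their part was not tested.

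**Figure D4:**
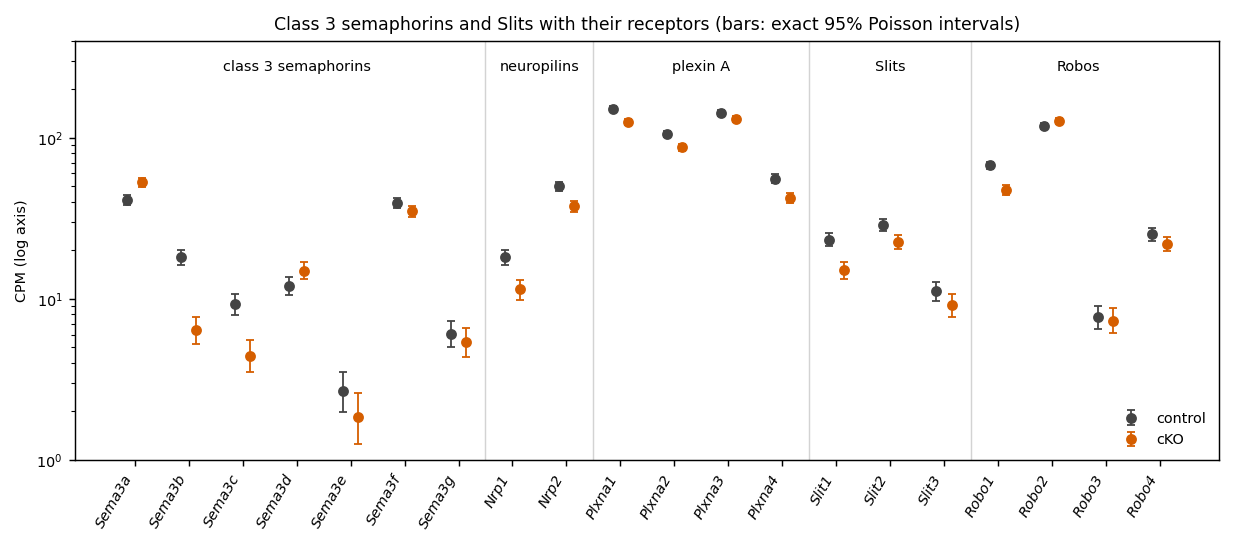
Level in CPM (log axis) of class 3 semaphorins, neuropilins, A-type plexins, Slits and Robos in the control (grey) and cKO (orange) library, with exact 95% Poisson intervals that cover counting error only. Intervals do not overlap for Sema3b, Sema3c, both Nrp genes, all Plxna genes, Slit1, Slit2 and Robo1, with the cKO point below the control point, and for Sema3a, with the cKO point above it.

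Promoter windows were read for Sema3a and Sema3c, the ligands of this class with the highest ratio and the lowest that had an entry, and for both neuropilins. They come from RefSeq on GRCm38.p6, whose promoter table held 58 of the 69 members, and each covers the 250 bases before the annotated start on the plus strand. The windows lie at chr5:13396534-13396783 for Sema3a, chr5:17574566-17574815 for Sema3c, chr8:128358823-128359072 for Nrp1 and chr1:62703067-62703316 for Nrp2. Capitals mark the GC box GGGCGG or its reverse complement, searched on both strands.
Sema3a: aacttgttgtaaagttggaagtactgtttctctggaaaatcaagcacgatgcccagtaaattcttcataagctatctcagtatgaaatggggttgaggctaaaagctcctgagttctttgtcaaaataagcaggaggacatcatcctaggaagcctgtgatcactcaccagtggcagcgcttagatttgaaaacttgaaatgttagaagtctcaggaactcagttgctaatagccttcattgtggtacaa
Sema3c: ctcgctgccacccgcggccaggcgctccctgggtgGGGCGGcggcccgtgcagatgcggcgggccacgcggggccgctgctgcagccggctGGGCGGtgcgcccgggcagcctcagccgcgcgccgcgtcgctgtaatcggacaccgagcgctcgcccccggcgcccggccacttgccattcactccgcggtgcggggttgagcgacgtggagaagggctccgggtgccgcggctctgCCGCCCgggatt
Nrp1: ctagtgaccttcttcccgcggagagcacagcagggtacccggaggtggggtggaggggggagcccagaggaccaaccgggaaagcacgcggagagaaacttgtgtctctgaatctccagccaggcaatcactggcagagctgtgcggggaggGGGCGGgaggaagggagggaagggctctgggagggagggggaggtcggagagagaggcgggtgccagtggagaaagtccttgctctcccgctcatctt
Nrp2: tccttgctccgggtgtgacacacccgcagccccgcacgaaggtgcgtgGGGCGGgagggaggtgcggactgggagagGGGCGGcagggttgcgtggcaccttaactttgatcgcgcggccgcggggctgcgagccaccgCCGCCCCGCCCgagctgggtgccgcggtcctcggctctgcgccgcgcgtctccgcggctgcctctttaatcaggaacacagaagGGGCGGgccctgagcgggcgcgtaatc

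The windows differ in base composition. The window of Sema3a had a GC content of 40.8% with 2 CpG dinucleotides and 0 GC boxes. That of Sema3c had 78.4% with 39 CpG and 3 GC boxes, Nrp1 64.4% with 11 CpG and 1 GC box, and Nrp2 72.4% with 32 CpG and 5 GC boxes, of which 2 overlap by 1 base. A GC box was found in 32.7% of all 32851 windows and in 52 of the 74 windows of members (70.3%). These 74 windows come from 58 members. Over all windows the median GC content was 52.4% and the median number of CpG was 6. The part of base composition in these shares was not tested. The GLI consensus GACCACCCA, searched on both strands because the series title concerns Gli1, was found in 0 of the 74 member windows and in 0.225% of all windows. Such matches describe the letters of these windows and show no binding.

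Other plexins stood on both sides of 0. Plxnb2 had 9854 control and 10067 cKO reads, or 524 against 581 CPM, a log2 ratio of 0.15 (0.11 to 0.19). It alone held 37.7% of the reads of plexins and neuropilins in the control and 43.1% in the cKO, so that the family sum stood at -0.04 with it and at -0.17 without it. The sum without Plxnb2 was not among the families set in advance. Plxnd1, the vascular receptor of Sema3e, stood at 0.11 (0.02 to 0.20), and its interval included 0 with DESeq2 size factors and with total counts. Plxnb1, a receptor of Sema4d, stood at -0.08 (-0.16 to -0.00) and Plxnc1 at -0.15 (-0.27 to -0.04). For the X-linked Plxnb3 (217 and 166 reads) the interval included 0, except with total counts, where it ended just below 0.

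Transmembrane and membrane-anchored semaphorins differed little. Sema7a had the highest ratio among them, with 3440 control and 3763 cKO reads, or 183 against 217 CPM, and a log2 ratio of 0.25 (0.18 to 0.31). Sema4a, a class 4 semaphorin with roles in immune cells, was the lowest outside class 3, with 481 and 336 reads, at a ratio of -0.40 (-0.61 to -0.20). Sema5a stood at -0.25 (-0.40 to -0.09) with 795 and 617 reads, and Sema6d, a ligand of Plxna1, at -0.16 (-0.24 to -0.08). Sema6a, the ligand of Plxna2 and the semaphorin with the most reads, had 4531 and 4237 reads, or 241 against 245 CPM, at a ratio of 0.02 (-0.04 to 0.08). Sema4c, a ligand of Plxnb2, stood at 0.02 (-0.08 to 0.12), so neither of these ligands differed beyond counting error while their receptor genes stood at -0.28 and 0.15. Intervals of Sema4b, Sema4d, Sema4f, Sema4g, Sema5b, Sema6b and Sema6c also included 0, with ratios from -0.14 to 0.07. Those of Sema4f and Sema6c lay below 0 with DESeq2 size factors and with total counts.

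All 3 Slit genes, which encode secreted repellents, had ratios below 0. Slit1 had 437 control and 260 cKO reads, or 23.2 against 15.0 CPM, a difference of 1.55-fold (log2 ratio -0.63, -0.86 to -0.41). Slit2 had 543 and 389 reads (-0.36, -0.56 to -0.17). Slit3 had 210 and 158 reads, and its interval of -0.60 to 0.01 included 0, though not with DESeq2 size factors or total counts. The summed Slit level was 63.3 control and 46.6 cKO CPM, a log2 ratio of -0.44 (-0.57 to -0.31).

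Ratios of the Robo receptors ran from -0.50 to 0.11. Robo1, an axonal Slit receptor, had 1264 control and 824 cKO reads, or 67.2 against 47.6 CPM, a ratio of -0.50 (-0.63 to -0.37). Robo2, the Robo gene with the most reads, stood at 0.11 (0.02 to 0.19) with 2227 and 2211 reads, or 118 against 128 CPM. Intervals included 0 for Robo3, a regulator of midline crossing (145 and 127 reads), and for the endothelial Robo4 (473 and 380 reads). The interval of Robo2 included 0 with total counts, while that of Robo1 stayed below 0. The interval of Robo4 reached 0 with TMM and lay below it under the other scalings.

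Netrins and their receptors stood near or slightly below 0. Ntn1, the attractant and repellent best known from the floor plate, had 1445 control and 1189 cKO reads, or 76.9 against 68.7 CPM, and a log2 ratio of -0.16 (-0.27 to -0.05). Unc5c, which is mutated in the rostral cerebellar malformation mouse, had 3484 and 3018 reads, or 185 against 174 CPM, at a ratio of -0.09 (-0.16 to -0.02). Unc5d stood at -0.24 (-0.44 to -0.03). The intervals of Dcc (389 and 350 reads), Unc5a, Unc5b and the basement membrane netrin Ntn4 included 0, with ratios from -0.17 to 0.05, though that of Unc5b lay below 0 with DESeq2 size factors and total counts. Ntn5 had 6 control reads and 0 cKO reads, and Plxna4os1 had 2 and 2, too few to compare. The floor of 3 counts equals 0.173 CPM in the cKO, and the exact Poisson interval of its 0 reads ends at 0.213 CPM, against a control level of 0.319 CPM.

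Eph receptors and ephrins, which work by contact between cells, were nearly level. None of 22 passed 1.5-fold, a rule by which 3.92% of all genes compared were lower and 2.26% higher. Over genes with at least 500 reads these shares were 1.06% and 0.226%, so 0 of 22 is near the background. The interval included 0 for 17 of 22. It included 0 for 12670 of all 18787 genes compared, and for 5550 of the 10160 genes with at least 500 reads. Ephb2, the Eph gene with the most reads, had 4583 control and 4569 cKO reads, or 244 against 264 CPM, a log2 ratio of 0.11 (0.05 to 0.17). Epha8 had 2260 and 2410 reads, a ratio of 0.21 (0.13 to 0.29). Ephb4, which partners Efnb2 in vessels, stood at 0.18 (0.03 to 0.34) and Epha3 at 0.27 (0.00 to 0.54), and both intervals included 0 with total counts.

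Among the ligands, Efnb3 was the only one whose interval excluded 0, at -0.10 (-0.19 to -0.02) with 2308 and 1979 reads. The X-linked Efnb1 stood at 0.04 (-0.09 to 0.16) and Efnb2 at 0.10 (-0.03 to 0.24). The 5 ephrin-A genes ran from -0.05 for Efna1 to 0.12 for Efna2. Epha4, a receptor for both ephrin classes, stood at -0.00 (-0.14 to 0.13) with 939 and 864 reads, and the kinase-dead Epha10 and Ephb6 at -0.01 and -0.02. Epha5, Epha7, Ephb1 and Ephb3 stood between -0.16 and -0.02 (Ephb3 with an interval below 0 only with DESeq2 size factors and total counts), and Epha1, Epha2 and Epha6 had at most 148 reads over both libraries and wide intervals. Summed, Eph receptors stood at 785 and 822 CPM and ephrins at 333 and 334 CPM.

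Partners of these families were examined through a list of 30 co-receptor and adhesion genes. Of these, 0 passed the 2-fold rule, the interval lay below 0 for 13 and above 0 for 9, and the median log2 ratio was -0.05. Over all genes compared, the intervals of 15.5% lay below and of 17.0% above 0, and over genes with at least 500 reads those of 20.0% and 25.4%. Met, the receptor of hepatocyte growth factor, was past 1.5-fold, with 57 control and 29 cKO reads (-0.86, -1.55 to -0.19). Islr2, which helps axons of mice extend and branch, was the highest, with 19222 and 23791 reads (0.43, 0.40 to 0.45).

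Inside the cell, guidance receptors act through collapsin response mediators, kinases and actin-binding proteins. Of 53 such effectors, 0 passed 1.5-fold, and the interval lay below 0 for 11 and above 0 for 14. The shares below and above 0 were 15.5% and 17.0% over all genes compared, and 20.0% and 25.4% over genes with at least 500 reads. The median of the effectors was 0.02. The kinase gene Pak3 was the lowest with 1230 and 886 reads (-0.36, -0.48 to -0.23), and the tyrosine kinase gene Fes the highest with 142 and 175 reads (0.42, 0.09 to 0.75).

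The authors' deposited table marked 2 of the 69 members as significant, Sema3b and Sema3c, and 2.77% of all genes. All genes so marked had an absolute log2 fold change above 1 and an adjusted p below 0.05 there. An adjusted p below 0.05 in the authors' deposited table went to 27 members and to 21.5% of all genes. In the authors' deposited table their log2 fold changes were -1.53 and -1.09. How the p-values in that table were made is not stated there, and the table holds 1 column of counts per genotype.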

How the data were processed

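RNA from cerebellum of 1 control and 1 cKO library was compared. The authors deposited raw read counts per gene, per the file headers, beside CPM values, a ratio (fold change), its log2 and p-values with adjusted p-values whose test no header or label names. Per the submitters' processing notes, HTSeq 0.6.0, Bowtie2 2.2.3, TopHat2 2.0.12 and build mm9 were used, without stated roles. Total RNA went into Illumina TruSeq libraries, per the labels' protocols.

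The deposited counts were scaled by TMM in edgeR 4.0.16 (R 4.3.3), and CPM given here use these totals. Ratios carry exact Clopper-Pearson 95% intervals and CPM exact Poisson intervals (scipy 1.17.1, Python 3.11.15). Intervals cover counting error only, and without molecular identifiers PCR copies cannot be told from separate molecules. Genes with at least 10 reads over both libraries were compared (18787 genes, with 3636 below). In medians, a count of 0 stood at 3 counts. DESeq2 1.42.0 size factors, other read minima, folds and intervals were alternatives. Counts were simulated with counting error only, and 200 genes with at least 500 reads were changed 3-fold. All 100% of these were called, and intervals held the true ratio for 95.8% of 18825 genes. Both outcomes follow from these settings. The recovery does not cover Sema3b and Sema3c, which had fewer than 500 reads, and neither outcome covers spread between animals. Exon lengths and overlaps came from GENCODE M21, matched by Ensembl ID for all 69 members.

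Any member could be named. Full values went to members past 1.5-fold and to the member with most reads in a family, and from the other pathway lists were named genes past 1.5-fold and the highest and lowest with at least 50 reads. Members and lists were chosen with earlier results of these data known.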

Additional observations from a re-analysis of the deposited data

How the results depend on the processing

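No paired analysis was possible because each genotype has 1 library, and for the same reason no library could be left out. The count of 2 members past the 2-fold rule, both lower, became 4, all lower, at 1.5-fold. The 2-fold count stayed at 2 under the 3 other scalings, at a minimum of 50 reads and with 99% intervals. In a choice made after seeing the data, it was also 2 without the 17 members whose exons overlap another gene. Without a read minimum it was 3, all lower, because Ntn5 was added with 6 control and 0 cKO reads. Over 4 scalings a member's log2 ratio moved by at most 0.03, which changed the sign of 3 members. Over all settings the medians ran from -0.10 to -0.07 for all members, -0.30 to -0.20 for plexins and neuropilins, -0.32 to -0.29 for Slits and Robos, -0.16 to -0.11 for netrins and their receptors, -0.08 to -0.05 for semaphorins and -0.01 to 0.02 for Ephs and ephrins. Members with intervals below and above 0 numbered 21 and 10 with TMM, 27 and 8 with DESeq2 size factors, 28 and 6 with total counts, and 22 and 10 with upper quartiles. With 1 library per genotype, the spread between animals is unknown, so depth is not the only limit on these values.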

Other observations

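Cues and receptors outside the classical families were also measured. Of 26 listed genes, 25 were compared. Of these, 0 passed the 2-fold rule, and 1 passed 1.5-fold, Slitrk4, a synaptic adhesion gene, with 147 control and 221 cKO reads and a log2 ratio of 0.71 (0.40 to 1.02). The lowest with at least 50 reads was Bdnf, the gene of a neurotrophin, with 41 and 28 reads and an interval from -1.18 to 0.30. Vegfa, whose product binds the neuropilins, had 1828 and 1321 reads (-0.35, -0.45 to -0.25). Vegfa was named after its values were seen. The median of the 25 was -0.08, and the interval lay below 0 for 8 and above 0 for 5. The shares below and above 0 were 15.5% and 17.0% over all genes compared, and 20.0% and 25.4% over genes with at least 500 reads.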
